A study of Mus musculus with 6 samples.

Results

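The cochlea houses the hair cells with which mammals hear. In the neonatal mouse cochlea 8 genes of mechanosensitive and related cation channels were followed: Piezo1, Piezo2, Tmem63a, Tmem63b, Tmem63c, Mcoln3, Trpv4 and Trpm7. They were taken as a fixed list of symbols and matched to Ensembl gene IDs, and all 8 were found among the 55769 features of the files. All 8 also passed the filter on low values, which kept 17097 features for testing. RNA-seq of cochlear samples from postnatal day 3 compared Plscr5-/- mice with wild-type mice, with 3 libraries of each genotype. Plscr5 belongs to the phospholipid scramblases, membrane proteins named for moving lipids between the leaflets of a membrane. No allele other than the Plscr5 knockout is listed for either group, and the labels name no strain, no altered part of the gene and no number of cochleae per library. The labels do not say that each library came from a separate animal, and the p-values therefore reflect the spread among these samples alone, which may be technical. The extraction protocol also mentions mice heterozygous for a Pou4f3 allele, which is listed for none of the libraries, and groups were taken from the genotype field.

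PIEZO1 and PIEZO2 are large channels that open when the membrane is stretched. PIEZO1 is best known from blood vessels and red blood cells and PIEZO2 from touch and body-position sense, and in neonatal hair cells PIEZO2 has been linked to a current at the apical surface that is separate from the hair bundle's own transduction current. The TMEM63 proteins belong to the OSCA/TMEM63 family of tension- and osmolarity-gated channels, which share a fold with the TMEM16 scramblases and with the TMC proteins of the hair bundle. MCOLN3 (TRPML3), TRPV4 and TRPM7 are members of the TRP superfamily. MCOLN3 is the channel altered in deaf varitint-waddler mice, TRPV4 responds to swelling, and TRPM7 joins a magnesium-permeable channel to a kinase.

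Values are in TPM, a transcript abundance per length and library total, so levels can be compared between genes. Because reads from similar genes can be confused when they are counted, the coding sequences of 2 pairs of paralogs were compared using 1 annotated transcript of each gene (GENCODE M21, GRCm38, the transcript with the longest complete coding sequence). The longest run of identical bases shared by Tmem63b and Tmem63c was 15 bases, and that of Piezo1 and Piezo2 was 17 bases. No stretch of 30 bases was shared by either pair. The run shared by Tmem63b and Tmem63c is shown with 20 bases on each side, because it is where these 2 genes are hardest to tell apart by an exact match. The shared run is in capitals, and positions count from the A of the start codon.
Tmem63b, bases 1066 to 1120: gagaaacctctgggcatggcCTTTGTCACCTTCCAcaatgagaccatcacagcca
Tmem63c, bases 1003 to 1057: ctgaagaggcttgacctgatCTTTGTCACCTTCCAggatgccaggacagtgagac

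Plscr5 itself had values of 4.30, 3.69 and 5.01 TPM with the gene knocked out, against 14.53, 12.42 and 9.27 TPM in wild-type mice, the direction that the labels give, although it did not pass the threshold (log2 fold change -1.28, SE 0.18, limma adjusted p = 0.29). Sequencing depth is unknown, since TPM keeps no read totals, and no counting interval can be given. Across the tested features, pairs of libraries correlated with Pearson r from 0.9635 to 0.9852 (features are not independent replicates). Of 17097 features, 2 passed an adjusted p of 0.05 (0.0117%), both lower in the knockout: mt-Nd4l and a feature without a symbol in the annotation, named here after their values were seen. Wild type replicate 3 stood apart in nerve markers: its summed neuronal markers were 193 TPM against 487 to 781 TPM in the other 5 libraries, and its summed Schwann cell markers 249 TPM against 888 to 1658 TPM. By genotype, all 10 neuronal markers (median log2 fold change 0.82) and all 10 Schwann cell markers (median 0.79) were above 0, with 0 past the threshold in the limma fit. The summed Schwann cell markers did not overlap, at 1011 to 1658 TPM for the knockouts against 249 to 976.5 TPM for wild type, whereas the neuronal sums did. All 10 hair cell markers listed were at 1 TPM or more in all 6 libraries. This shows that these genes were detected and does not by itself identify the tissue.

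None of the 8 channel genes differed detectably between the genotypes. In the limma fit across all features, 0 of 8 passed an adjusted p of 0.05, where 0.0117% of all features did. At an unadjusted p under 0.05 the count was also 0 of 8, where 4% of all features had one. At 0 of 8 genes the 2 groups were without overlap, which was the case at 9.33% of all features. Fold changes were computed from log2(TPM + 1) as knockout minus wild type, which understates the change of low genes. On this scale 4 genes were above 0 and 4 below, with a median log2 fold change of 0.00 beside -0.01 over all features. For 7 of 8 genes the 95% confidence interval of the fold change lay within 1.5-fold in either direction, Tmem63c being the exception. The sum over the 8 genes was 247, 237 and 243 TPM for the knockouts against 240.4, 251 and 258 TPM for wild type, so the groups overlapped there too.

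**Figure D1:**
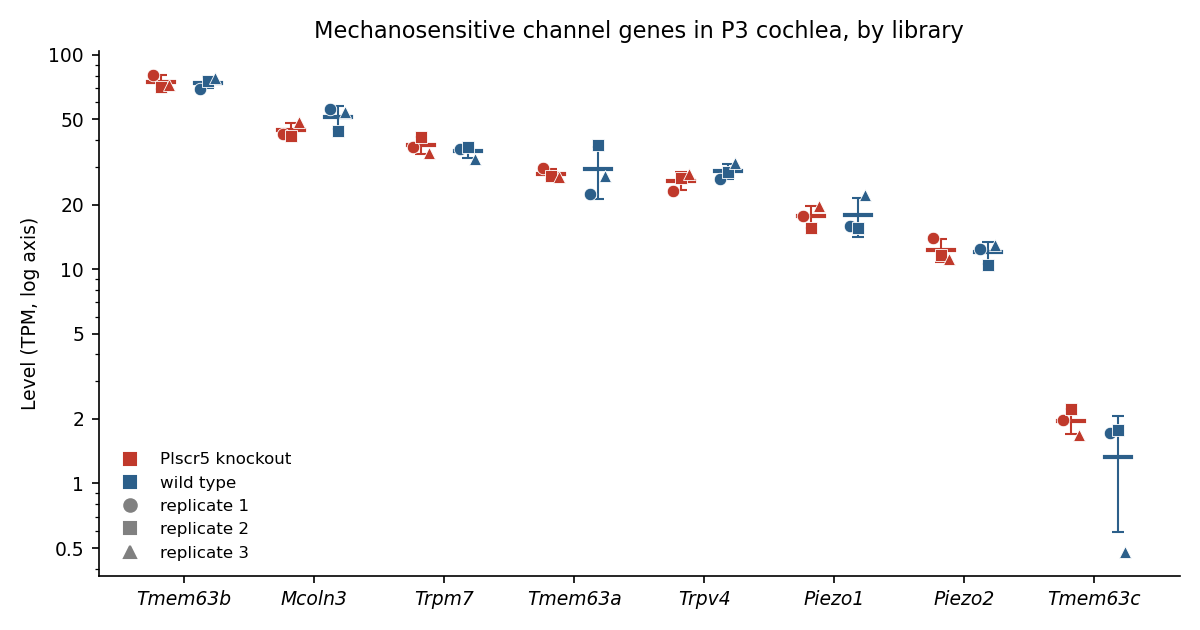
Level of each channel gene in TPM on a log axis, with 1 point per library (red, knockout; blue, wild type; the symbol gives the replicate number), bars at the group means and whiskers of 1 SD over 3 libraries. The 2 genotypes overlap for all 8 genes, and the lowest point of the plot is Tmem63c in wild type replicate 3, at 0.48 TPM.

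The order of the levels was nearly the same in every library. Tmem63b was highest with a mean over 6 libraries of 74.3 TPM, followed by Mcoln3 at 47.9, Trpm7 at 36.6, Tmem63a at 28.6, Trpv4 at 27.2, Piezo1 at 17.7, Piezo2 at 12.1 and Tmem63c at 1.64 TPM. Tmem63b lay above 87.5% of the tested features, Piezo1 above 51.8% and Tmem63c above 8.07%. Between neighbours in this order the ranges over 6 libraries were apart at 5 of 7 steps. They overlapped for Trpm7 and Tmem63a, where Trpm7 was higher in 5 of 6 libraries, and for Tmem63a and Trpv4, where Tmem63a was higher in 3 of 6. Trpm7 lay above Trpv4 in all 6 libraries, and the place of Tmem63a relative to both varied.

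Piezo1 (ENSMUSG00000014444) stood at 17.68, 15.52 and 19.63 TPM in knockout libraries, against 15.81, 15.62 and 22.14 TPM in wild-type ones. The highest and the second highest value belonged to replicate 3 of each genotype, and the groups overlapped. The means were 17.6 ± 2.06 TPM (SD, n = 3) and 17.9 ± 3.71 TPM (SD, n = 3), with a log2 fold change of -0.01 (SE 0.15, limma adjusted p = 0.998) and a 95% confidence interval from -22.4% to 27.5% of TPM + 1. The sign was not stable, since without wild type replicate 3 the log2 fold change was 0.15. The summed level of 10 endothelial markers, the cell type for which Piezo1 is best known, ran from 278 to 310.4 TPM among knockouts and from 281 to 301 TPM in the wild type.

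Piezo2 (ENSMUSG00000041482) stood at 13.99, 11.69 and 11.19 TPM in knockout libraries, against 12.47, 10.42 and 12.98 TPM in wild-type ones. Knockout replicate 1 was highest and wild type replicate 2 lowest, and of the other 4 libraries the 2 knockouts lay below the 2 wild types. The means were 12.3 ± 1.49 and 11.96 ± 1.36 TPM (SD, n = 3 each), with a log2 fold change of 0.04 (SE 0.13, limma adjusted p = 0.996) and an interval from -17.1% to 26.8%. In wild type replicate 3, where the nerve markers were lowest, Piezo2 was the second highest of the 6 libraries.

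Piezo1 exceeded Piezo2 in all 6 libraries. The ratio of Piezo2 to Piezo1 was 0.791, 0.753 and 0.570 in the knockout and 0.789, 0.667 and 0.586 in the wild type. In both genotypes it was highest in replicate 1 and lowest in replicate 3, and the groups overlapped. The difference of the mean log2 ratio was 0.046 (two-sided exact permutation test, p = 0.9, where 3 libraries against 3 cannot go below 0.1). Piezo2 made up 41.1% ± 4.24 of the PIEZO sum in the knockout and 40.4% ± 3.58 in the wild type (SD, n = 3 each). The sum of both was 29.9 ± 2.37 TPM and 29.8 ± 4.73 TPM.

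Tmem63b (ENSMUSG00000036026), the most abundant of the 8 genes, encodes a channel that outer hair cells need to withstand osmotic challenge. It stood at 80.78, 70.38 and 72.44 TPM in knockout libraries, against 69.34, 75.41 and 77.51 TPM in wild-type ones. Its highest library was a knockout and its lowest a wild type, and the genotypes were mixed in between. It was also the least variable, with a coefficient of variation over 6 libraries of 5.93% beside 7.87% to 36.7% for the other 7 genes. The means were 74.5 ± 5.51 and 74.1 ± 4.24 TPM (SD, n = 3 each), with a log2 fold change of 0.01 (SE 0.08, limma adjusted p = 0.998). Its interval, from -12.0% to 14.8%, was the narrowest of the 8.

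Tmem63a (ENSMUSG00000026519), a widely expressed paralog, stood at 29.65, 27.05 and 26.96 TPM in knockout libraries, against 22.51, 38.06 and 27.27 TPM in wild-type ones. All 3 knockout values lay between the lowest and the highest wild-type value. The means were 27.9 ± 1.53 and 29.3 ± 7.97 TPM (SD, n = 3 each), so that the wild-type libraries differed more among themselves than the genotypes did. The log2 fold change was -0.04 (SE 0.17, limma adjusted p = 0.998), and it ran from -0.20 without wild type replicate 1 to 0.16 without wild type replicate 2.

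Tmem63c (ENSMUSG00000034145) stood at 1.98, 2.22 and 1.69 TPM in knockout libraries, against 1.72, 1.77 and 0.48 TPM in wild-type ones. Wild type replicate 3 was far below the rest, and the other 5 libraries lay between 1.69 and 2.22 TPM with the lowest of them a knockout. The means were 1.96 ± 0.265 and 1.32 ± 0.731 TPM (SD, n = 3 each). This gave the largest log2 fold change of the 8 genes, 0.40 (SE 0.27, limma adjusted p = 0.989), with an interval from -14.5% to 105%. Without wild type replicate 3 the log2 fold change was 0.11, and with a pseudocount of 0.1 in place of 1 it was 0.71. That library was also the lowest in neuronal and Schwann cell markers, with the median of 10 neuronal markers at -1.42 and of 10 Schwann cell markers at -1.47 relative to the mean of the 6 libraries on the log2(TPM + 1) scale, where Tmem63c was at -0.80. In bulk tissue, fewer cells of a type and less RNA per cell cannot be told apart, and the part of these markers in the Tmem63c value was not tested.

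Within the TMEM63 family Tmem63b made up 71.4% ± 0.662 of the summed TPM in the knockout and 71.1% ± 4.87 in the wild type (SD, n = 3 each), and Tmem63c 1.89% ± 0.299 and 1.28% ± 0.727. The ratio of Tmem63b to Tmem63a was 2.72, 2.60 and 2.69 in the knockout and 3.08, 1.98 and 2.84 in the wild type. The knockout libraries lay close together inside the wild-type range. The difference of the mean log2 ratio was 0.045 (two-sided exact permutation test, p = 1).

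Mcoln3 (ENSMUSG00000036853), a channel of endolysosomes that hair cells and the stria vascularis are known to express, had the smallest p of the 8 genes and did not pass. It stood at 42.80, 41.92 and 48.64 TPM in knockout libraries, against 55.90, 44.03 and 54.10 TPM in wild-type ones. The 2 highest values were wild type and the 2 lowest knockout, and knockout replicate 3 lay above wild type replicate 2, so that the groups overlapped. The means were 44.5 ± 3.65 and 51.3 ± 6.40 TPM (SD, n = 3 each), or 86.6% of the wild-type level. The log2 fold change was -0.20 (SE 0.11, unadjusted p = 0.113, limma adjusted p = 0.989), with an interval from -27.2% to 4.2%. It stayed below 0 whichever library was left out, from -0.30 without wild type replicate 2 to -0.135 without wild type replicate 1.

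Markers of hair cells, strial marginal cells and melanocytes were set beside Mcoln3. Of 10 hair cell markers 6 were below 0 and 4 above, with a median log2 fold change of -0.08. Their sum ran from 540.0 to 601 TPM among knockouts and from 509 to 577 TPM in the wild type. Calb2 weighed most in this sum, with a mean of 213 TPM (log2 fold change 0.35). Wild type replicate 3 had the lowest Calb2, at 131 TPM, and the lowest hair cell sum. It also had the lowest summed neuronal markers, at 193 TPM, and their part in the Calb2 value was not tested. The median of the 10 hair cell markers relative to the mean of the 6 libraries was highest in wild type replicate 3, at 0.067 in log2(TPM + 1). Of 4 markers of strial marginal cells 3 were below 0, with a median of -0.035. Their sum ran from 32.7 to 39.5 TPM among knockouts and from 37.3 to 42.9 TPM in the wild type. This sum was mostly Lrp2, with a mean of 30.3 TPM beside 5.27 for Kcnq1, 1.25 for Kcne1 and 1.39 for Esrrb. Of 5 melanocyte markers 2 were tested, 2 above 0 and 0 below, with a median log2 fold change of 0.16. The part of the hair cell, strial and melanocyte markers in the Mcoln3 value was not tested.

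Trpv4 (ENSMUSG00000014158) stood at 23.12, 26.48 and 27.87 TPM in knockout libraries, against 26.34, 28.39 and 31.16 TPM in wild-type ones. Knockout replicate 1 was the lowest and wild type replicate 3 the highest, and knockout replicates 2 and 3 both lay above wild type replicate 1. The means were 25.8 ± 2.44 and 28.6 ± 2.42 TPM (SD, n = 3 each), or 90.2% of the wild-type level, with a log2 fold change of -0.14 (SE 0.11, limma adjusted p = 0.989). Without knockout replicate 1 it was -0.07, and without wild type replicate 3 it was -0.08.

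Trpm7 (ENSMUSG00000027365) stood at 37.23, 41.40 and 34.88 TPM in knockout libraries, against 36.35, 37.17 and 32.75 TPM in wild-type ones. Replicate 3 was the lowest of each genotype, and knockout replicate 3 lay below 2 of the 3 wild-type libraries. The means were 37.8 ± 3.30 and 35.4 ± 2.35 TPM (SD, n = 3 each), with a log2 fold change of 0.09 (SE 0.10, limma adjusted p = 0.989) and an interval from -8.66% to 24.2%. Without knockout replicate 2 it was 0.03, and without wild type replicate 3 it was 0.04.

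**Figure D2:**
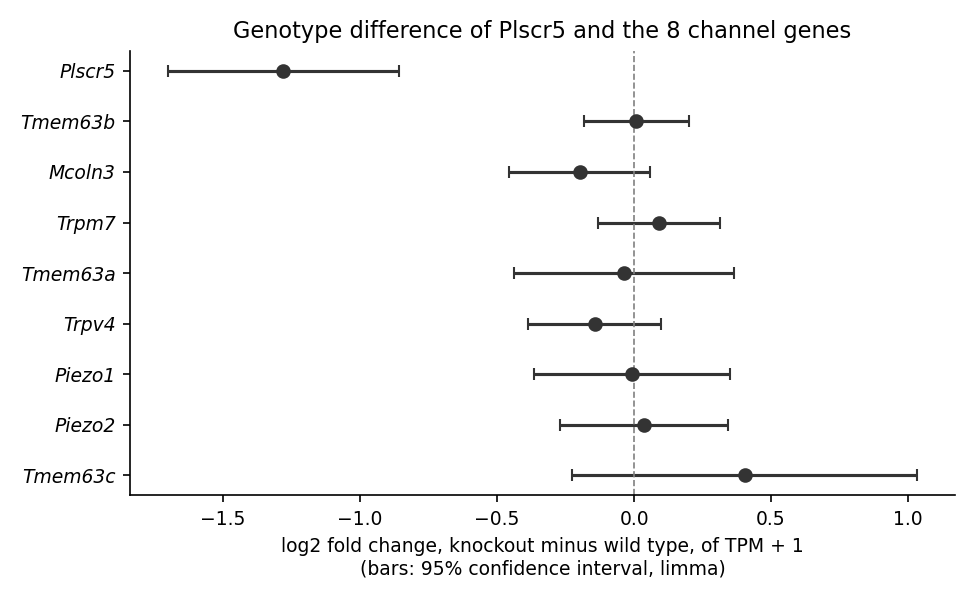
Fold change of Plscr5 and the 8 channel genes, as the log2(TPM + 1) difference of knockout minus wild type, with points at the limma estimate and bars for the 95% confidence interval over 3 libraries per genotype. The interval of Plscr5 lies wholly below 0, and those of all 8 channel genes include 0.

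The channel genes did not share 1 pattern over the libraries. Wild type replicate 3 held the highest value of 2 genes (Piezo1, Trpv4) and the lowest of 2 (Tmem63c, Trpm7), knockout replicate 2 likewise the highest of 2 (Tmem63c, Trpm7) and the lowest of 2 (Piezo1, Mcoln3), and knockout replicate 3 held neither extreme of any. Except for Tmem63c, the highest library exceeded the lowest by 1.16-fold (Tmem63b) to 1.69-fold (Tmem63a), whereas for Tmem63c the ratio was 4.63. Red blood cells, which are known to carry PIEZO1, also varied. The sum of 7 red blood cell markers ran from 442.5 to 1482 TPM among knockouts. In the wild type it ran from 911 to 1048 TPM. The part of red blood cells in the Piezo1 values was not tested. Supporting cell markers were below 0 in 8 of 8 genes (median log2 fold change -0.17, 0 past the threshold in the limma fit). Of all 17097 features tested, 9128 were below 0. The sum of the supporting cell markers ran from 1155 to 1238 TPM among knockouts and from 1278 to 1516 TPM in the wild type. Otoa weighed most in this sum, with a mean of 649.5 TPM, followed by Gjb2 at 248.1 TPM. Both were lower in the knockout without overlap, and the groups overlapped at the other supporting cell markers.

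**Figure D3:**
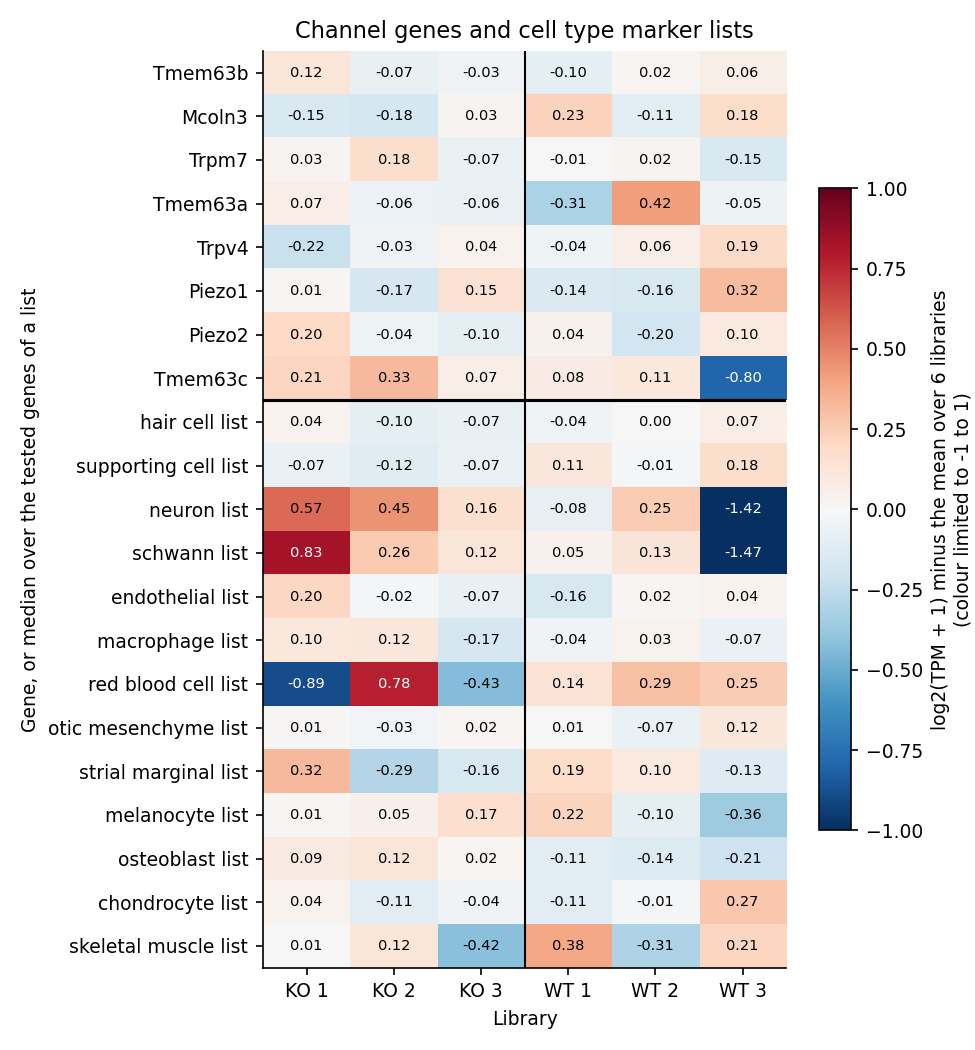
Deviation of each library from the mean of the 6 libraries in log2(TPM + 1), for the 8 channel genes (above the line) and for the median over the tested genes of 13 cell type marker lists (below it), with knockout libraries at the left and wild-type libraries at the right. Wild type replicate 3 is at -0.80 for Tmem63c, at -1.42 for the neuronal list and at -1.47 for the Schwann cell list, beyond the colour range for both lists.

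Of 7 partner genes of PIEZO channels 6 were tested, 2 above 0 and 4 below, with a median log2 fold change of -0.01, and 0 passed the threshold. Mdfic and Mdfi encode proteins of the MyoD inhibitor family that bind PIEZO channels, and Stoml3 is a stomatin-like protein that tunes them. Mdfi was abundant, with means of 159 TPM among knockouts and 162 TPM in the wild type, whereas Mdfic was at 12.2 TPM in both. Stoml3 stayed between 0.27 and 0.46 TPM and was not tested. The members with the smallest p were Atp2a2, the calcium pump SERCA2 (log2 fold change -0.17), Stom (0.10) and Mdfi (-0.02), each with a limma adjusted p of 0.989 or more.

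The tip link and transduction complex is the machinery by which hair bundles convert sound into current. Of 9 of its genes 8 were tested, and all 8 had a log2 fold change below 0, from -0.28 to -0.06 with a median of -0.145 (0 past an adjusted p of 0.05 and 0 with an unadjusted p under 0.05 by limma). The groups were without overlap at 3 of the 8 (Tmc2, Lhfpl5 and Pcdh15), all lower in the knockout, where 4.74% of all features were. Results for hair bundle genes in these libraries were known when this list was drawn up, so its direction is not independent evidence. Of all 17097 features tested, 9128 were below 0. Of 10 hair cell markers 6 were below 0 and 4 above, with a median log2 fold change of -0.08. Among them Otof (-0.17) and Atoh1 (-0.14) were also lower in the knockout without overlap, and the groups overlapped at the others. The part of hair cell content in the values of the transduction genes was not tested.

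Of the pore-forming subunits, Tmc2 stood at 4.97, 5.16 and 4.29 TPM in knockout libraries, against 6.60, 5.51 and 6.10 TPM in wild-type ones (log2 fold change -0.28, SE 0.14, limma adjusted p = 0.989). Tmc1 stood at 6.40, 4.69 and 6.43 TPM and at 6.63, 6.60 and 6.29 TPM, so that only knockout replicate 2 was below the wild-type range (log2 fold change -0.14). The mean of Tmc1 was thus below that of Piezo2, and Tmem63b was from 10.5-fold to 16.9-fold above either TMC gene over the 6 libraries. These are levels in bulk tissue, and levels within hair cells were not measured.

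Lhfpl5, which links the tip link to the channel, stood at 31.98, 32.65 and 33.66 TPM in knockout libraries, against 35.08, 36.21 and 37.72 TPM in wild-type ones (log2 fold change -0.14). The calcium-binding subunit Cib2 (log2 fold change -0.11), the accessory subunit Tmie (-0.15) and Tomt (-0.10), which is needed to deliver the TMC proteins, had overlapping groups. Of the tip-link cadherins, Pcdh15 had the smallest p of the list (log2 fold change -0.28, limma adjusted p = 0.989), and Cdh23 was at -0.06.

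Among 19 other channels known to respond to stretch, swelling or acid, 18 were tested, 7 above 0 and 11 below (median log2 fold change -0.02), and 0 passed. At an unadjusted p under 0.05 there was 1 of 18, where 4% of all features were: Asic3, an acid-sensing channel of sensory neurons. It stood at 43.33, 45.66 and 38.60 TPM in knockout libraries, against 25.62, 39.22 and 20.60 TPM in wild-type ones (log2 fold change 0.61, SE 0.21, limma adjusted p = 0.989). Knockout replicate 3 lay below wild type replicate 2, and the lowest value was that of wild type replicate 3, the library with the lowest neuronal markers, whose part in this value was not tested. Asic2, a related subunit (log2 fold change -0.22), and Lrrc8b, a subunit of the volume-regulated anion channel (-0.13), had the next smallest p. Lrrc8b was the 1 gene of 18 at which the groups did not overlap, the knockout being lower, where 9.33% of all features were without overlap in either direction.

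Of 22 other TRP channels 11 were tested, 4 above 0 and 7 below (median log2 fold change -0.05), and 0 passed or had an unadjusted p under 0.05. The close relatives of Mcoln3 were far apart in level. Mcoln1, the widely expressed endolysosomal paralog, stood at 81.10, 103.18 and 73.67 TPM in knockout libraries, against 74.63, 60.26 and 78.30 TPM in wild-type ones (log2 fold change 0.27, SE 0.14, limma adjusted p = 0.989), and Mcoln2 was at 0.33 TPM or less in all 6 libraries. Trpm3 was the most abundant of the list, with means of 174 ± 16.9 TPM among knockouts and 199 ± 26.9 TPM in the wild type (SD, n = 3 each; log2 fold change -0.20). Trpc5, at 1.18 to 1.58 TPM among knockouts and 1.66 to 2.44 TPM in the wild type, was the 1 gene of 11 without overlap between the groups, where 9.33% of all features were (log2 fold change -0.36, limma adjusted p = 0.989). Trpc2 and Trpv5 were listed at 0 in all 6 libraries.

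Genes that respond to flow or stretch in other tissues gave no common direction. Of 7 genes 6 were tested, 4 above 0 and 2 below (median log2 fold change 0.03), and 0 passed or had an unadjusted p under 0.05 by limma. Klf4, a transcription factor that shear stress induces in endothelium, had the smallest p, at 20.39, 16.68 and 17.23 TPM in knockout libraries, against 14.69, 14.53 and 17.04 TPM in wild-type ones (log2 fold change 0.22). Nos3, the endothelial nitric oxide synthase, was at 0.17. Ccn2, a target of the YAP pathway, had a log2 fold change of -0.28 and groups that overlapped.

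**Figure D4:**
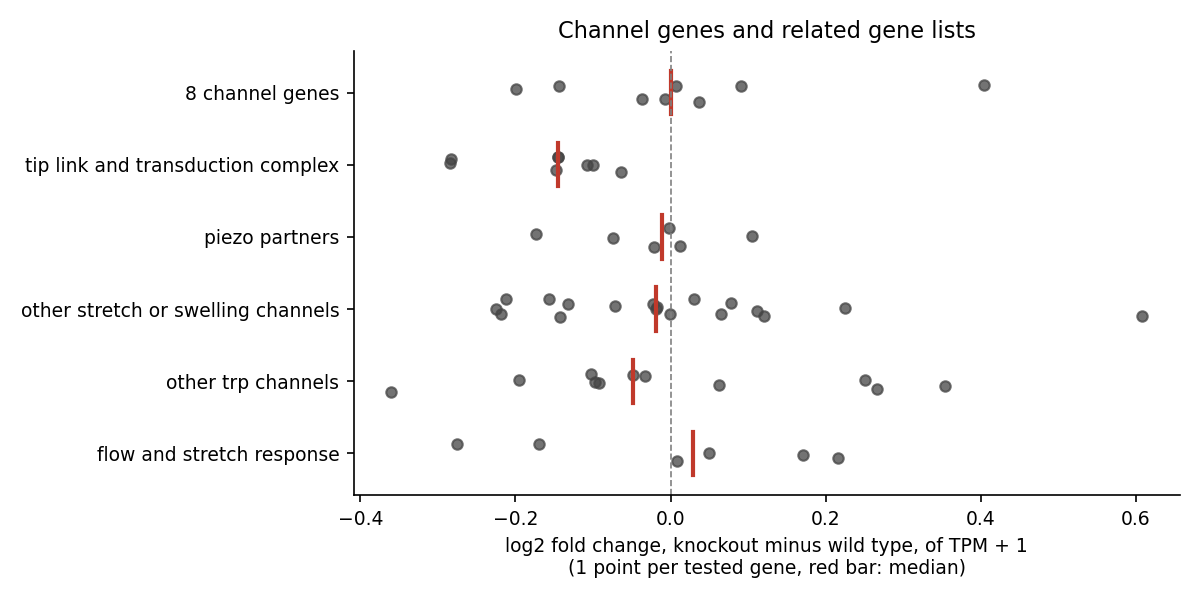
Fold change of every tested gene, as the log2(TPM + 1) difference of knockout minus wild type, for the 8 channel genes and the 5 related lists, with 1 point per gene and a red bar at the median. The 8 tested genes of the tip link and transduction complex all lie below 0, and the other lists lie on both sides.

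For each channel gene, the 2 protein-coding genes whose log2(TPM + 1) followed it most closely over the 6 libraries were taken from 11903 candidates (11904 for Tmem63c) with a mean of at least 5 TPM. These r values are the highest of many and rest on 6 libraries that also share composition and scaling, so they are descriptions. Piezo1 was followed by Eva1c (Pearson r = 0.989) and Fam20a (0.988), and Piezo2 by Ier5l (0.980) and Ing2 (0.977). Tmem63b was followed by Extl3 (0.996) and Zfp598 (0.993), and Tmem63a by Nckap5l (0.975) and Tmed4 (0.970), for which r without wild type replicate 2 was 0.909 and 0.883. Tmem63c was followed by Elavl2 (0.999), a neuronal RNA-binding protein gene, and Ccdc120 (0.997), and r without wild type replicate 3 was 0.986 and 0.952. Elavl2 stood at 9.46, 11.05 and 7.35 TPM in knockout libraries, against 8.07, 7.86 and 1.55 TPM in wild-type ones. Tmem63c also had 201 candidates with r above 0.95, where the other 7 channel genes had 6 to 35. Its deviation was -0.80 in wild type replicate 3 and 0.07 to 0.33 in the other libraries. A gene that is low in that library alone can therefore reach a high r with Tmem63c. The count was not repeated without that library. Mcoln3 was followed by Bdh2 (0.990) and Cul5 (0.987), Trpv4 by 1110008L16Rik (0.996) and Commd8 (0.989), and Trpm7 by Gtf3c6 (0.987) and Jam3 (0.982).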

How the data were processed

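The deposited values are in TPM, read from the values themselves: each of the 6 files sums to 1000000 within 1 and is written with 2 decimals. DESeq2 and the build mm8 are named, without a role, per the submitters' processing notes, and the steps from reads to TPM were not given in what was used here. Symbols came from GENCODE M21 (GRCm38), and no coordinates are given because the builds differ. The filter kept features that reached 1 TPM in 3 or more libraries, and log2(TPM + 1) was then tested for genotype with limma 3.58.1 in R 4.3.3 (trend, robust, Benjamini-Hochberg over all 17097 features, threshold 0.05), and the fit was tested on simulated data. Ratios were compared with a two-sided exact permutation test. Alternatives were other pseudocounts, filters, scalings and variance models, a replicate block and each library left out in turn.

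The channel genes and the gene lists were chosen with earlier results of these data known. The genes named were Plscr5, the 8 channel genes, 5 transduction genes, the 3 genes with the smallest p in each related list and 2 genes most like each channel gene. The other genes named were chosen after their values were seen. 1 comparison of paralog sequences is not reported here.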

Additional observations from a re-analysis of the deposited data

How the results depend on the processing

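In all 15 alternative settings 0 of the tested channel genes passed the threshold, with limma adjusted p from 0.684 to 1. Tmem63c was not tested with a filter of 5 TPM. Of 119 checks on the 8 genes 110 kept their sign and 9 did not. Piezo1 turned to 0.006 with quantile normalization, where the median of all features was -0.012 beside -0.011 in the main fit. It turned to 0.004 with median-of-ratios scaling, where that median was 0. The other 7 sign changes came from leaving out single libraries, over which the log2 fold change ran from -0.090 to 0.149 for Piezo1, from -0.054 to 0.096 for Piezo2, from -0.203 to 0.163 for Tmem63a and from -0.051 to 0.047 for Tmem63b. Leaving out single libraries moved the log2 ratio of Piezo2 to Piezo1 from -0.056 to 0.192 and that of Tmem63b to Tmem63a from -0.148 to 0.170, through 0 in both. The count over all features was 2, and it was 0 with no filter and without the variance trend and robust moderation together, 1 with median-of-ratios scaling, 1 with haemoglobin and mitochondrial genes removed, and 0 to 3 leaving out single libraries; the cause was not tested.

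Same-numbered libraries deviated with r of 0.188, -0.055 and 0.242 for replicates 1, 2 and 3. Between different numbers r ran from -0.269 to 0.126, so replicates 1 and 3 deviated together more than any of those. The labels name no pairing, and the main fit did not take the numbers as pairs. With the replicate block 0 features passed in place of 2. The block left the log2 fold changes of the 8 genes as they were, and it left the log2 ratios at 0.046 for Piezo2 to Piezo1 and 0.045 for Tmem63b to Tmem63a. Depth is unknown, so its part in the precision of any of these values cannot be given.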
